A study of Arabidopsis thaliana with 48 samples.

Results

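The 60 genes described here had more reads in both chr4 mutants than in their own backgrounds at each of 4 weeks of a short-day time course of the Arabidopsis thaliana shoot apex. They were selected on these data. Reads per gene were scaled to CPM, the usual counts-per-million scale in which each library has the same total, and averaged over the libraries of a group. The log2 ratio of mutant over background was taken after adding 0.5 CPM to both means, for chr4-2 over WT and for qem2 over quintuple at 3, 4, 5 and 6 weeks. The score of a gene was the lowest of these 8 values, 11 listed genes were set aside, and the 60 highest scores of the 27206 genes in the table were kept. Among the 11 genes set aside, 6 scored above the 60th member, with AT2G29500 (2.56), AT1G48180 (1.94) and AT1G79400 (1.41) the highest of them, so the 60 are not the highest scores of all genes. A score above 0 was found for 1727 genes.

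Plants grew in short days (8 h of light) and shoot apices enriched for the apical meristem were collected, with 3 libraries of 15 pooled apices for each genotype and week. The chr4-2 plants carried the sail_783c05 allele of CHR4 and no other named mutation. The qem2 plants descend from a mutagenised svp flc ft tsf soc1 line and so carry those 5 mutations beside the qem2 lesion. The labels do not give that lesion. Its place in CHR4 is taken from knowledge of the study and was not checked in these files. The quintuple plants carried the same 5 mutations, and WT plants were Col. Each mutant is a single line. The column labelled qem2 at 5 weeks, replicate 3, held the same count at every gene as quintuple at 5 weeks, replicate 3, and was left out, so qem2 at 5 weeks has 2 libraries.

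CHR4, also named PKR1, belongs to the CHD family of chromatin remodellers, which use ATP to move or space nucleosomes and carry chromodomains that can contact modified histone tails. In the shoot apex such remodellers are known for setting which developmental genes stay silent and which become active as the meristem changes from making leaves to making flowers. SVP, FLC, FT, TSF and SOC1 are regulators of flowering time.

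Libraries held 2910606 to 19748987 assigned reads (median 14184943), and the shallowest gives low genes the least precision. The shallowest was qem2 at 6 weeks replicate 1, and the next, WT at 6 weeks replicate 2, held 6359846 reads. Values of low genes in that qem2 library, the first of each qem2 set given at 6 weeks, rest on few reads. CHR4 itself had 71.3 ± 12.4 CPM in chr4-2 apices and 163 ± 10.7 CPM in WT apices at 3 weeks (mean ± SD, n = 3 each), and 105 ± 0.694 against 224 ± 13.3 CPM at 6 weeks. It was called lower in chr4-2 at each week (adjusted p at most 2.99e-12). In qem2 it was not lower: it had 249 ± 15.8 CPM in qem2 apices and 172 ± 8.23 CPM in quintuple apices at 3 weeks, and was called higher at 3 weeks (log2 fold change 0.50, adjusted p = 0.000168) and at 4 weeks (0.37, adjusted p = 0.00642). The meristem genes STM, KNAT1 and CLV1 were read in all 47 libraries, STM at 39.0 to 179 CPM, and CLV3 and WUS, which mark few cells of the meristem, were low, with reads in 46 and 45 libraries at a median of 0.532 and 0.655 CPM. Of the anther genes MS1 had no read, AMS and A9 had reads in 2 libraries each, and TDF1 had reads in 19 libraries, up to 0.472 CPM. The photosynthesis gene LHCB1.3, a leaf marker, had 6095 to 11587 CPM. In such bulk samples fewer cells of a type and less RNA per cell cannot be told apart.

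The promoter windows of 4 members are shown because these genes lead the score, AER, AT1G18410 and AT2G24696, or lie beside the leading gene, AT5G17000. Each is the 250 bases before the annotated start, 5′ to 3′ on the strand of the gene (the minus strand for all 4), from RefSeq TAIR10.1, and capitals mark a GAGAGA repeat or a TATAAA box on either strand.
AER (chr5:5578087-5578336): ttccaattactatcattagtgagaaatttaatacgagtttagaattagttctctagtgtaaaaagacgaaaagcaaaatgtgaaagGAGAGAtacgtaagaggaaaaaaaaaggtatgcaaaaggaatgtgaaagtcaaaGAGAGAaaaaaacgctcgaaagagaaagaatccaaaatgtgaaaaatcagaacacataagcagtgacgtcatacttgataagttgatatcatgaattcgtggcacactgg
AT5G17000 (chr5:5587238-5587487): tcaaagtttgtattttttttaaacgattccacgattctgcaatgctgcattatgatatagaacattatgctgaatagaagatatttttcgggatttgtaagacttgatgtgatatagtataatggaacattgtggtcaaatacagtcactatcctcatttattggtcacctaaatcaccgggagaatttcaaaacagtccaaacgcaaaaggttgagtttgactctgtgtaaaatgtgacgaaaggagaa
AT1G18410 (chr1:6342528-6342777): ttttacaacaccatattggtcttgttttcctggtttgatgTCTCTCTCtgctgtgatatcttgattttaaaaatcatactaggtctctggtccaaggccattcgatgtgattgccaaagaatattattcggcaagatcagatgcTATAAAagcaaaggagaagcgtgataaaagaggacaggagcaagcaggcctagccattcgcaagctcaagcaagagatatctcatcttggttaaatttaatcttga
AT2G24696 (chr2:10510903-10511152): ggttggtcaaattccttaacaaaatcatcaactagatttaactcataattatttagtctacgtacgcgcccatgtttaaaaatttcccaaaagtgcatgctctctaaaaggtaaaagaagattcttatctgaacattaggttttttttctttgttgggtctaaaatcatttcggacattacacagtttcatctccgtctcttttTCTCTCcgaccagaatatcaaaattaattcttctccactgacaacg

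Motifs were counted on both strands of the same 250 bases for the 60 members and for the 23716 genes with reads and a RefSeq start. GAGAGA, a repeat that BPC proteins bind in plants, was in 12 of 60 member windows (20.0%) and in 20.2% of all windows. The G-box CACGTG, a site of bZIP and bHLH factors, was in 4 (6.67%) and in 7.07% of all. The telo-box AAACCCTA was in 1 member window, that of AT1G07440 (1.67%), and in 3.94% of all. TATAAA was in 19 member windows (31.7%) and in 46.9% of all. The AER window held 2 GAGAGA repeats, the AT1G18410 window 2 overlapping ones and a TATAAA, and the AT2G24696 window 1 repeat, whereas none of these motifs was in the AT5G17000 window. The median GC content of the windows was 34.0% for members and 31.2% for all genes. A match describes the letters of the window and is not a measured binding site.

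The 8 values that chose the members are given as a description. Their median over the 60 genes was 1.17, 1.35, 1.61 and 1.66 for chr4-2 over WT at 3, 4, 5 and 6 weeks. For qem2 over quintuple it was 1.24, 1.41, 1.39 and 1.32 at the same weeks. Over all genes with reads the corresponding medians lay between -0.01 and 0.05. The lowest value was that of chr4-2 at 3 weeks for 16 members and that of qem2 at 6 weeks for 14 members, the weeks that most often decided a score. AT2G24696 held the largest of all values, 3.78 in chr4-2 at 6 weeks. The last gene inside the cut was AT1G66910, a protein kinase, with a score of 0.63 (0.633), and the first outside was AT3G49960 (0.632), so the boundary falls between genes that hardly differ.

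**Figure D1:**
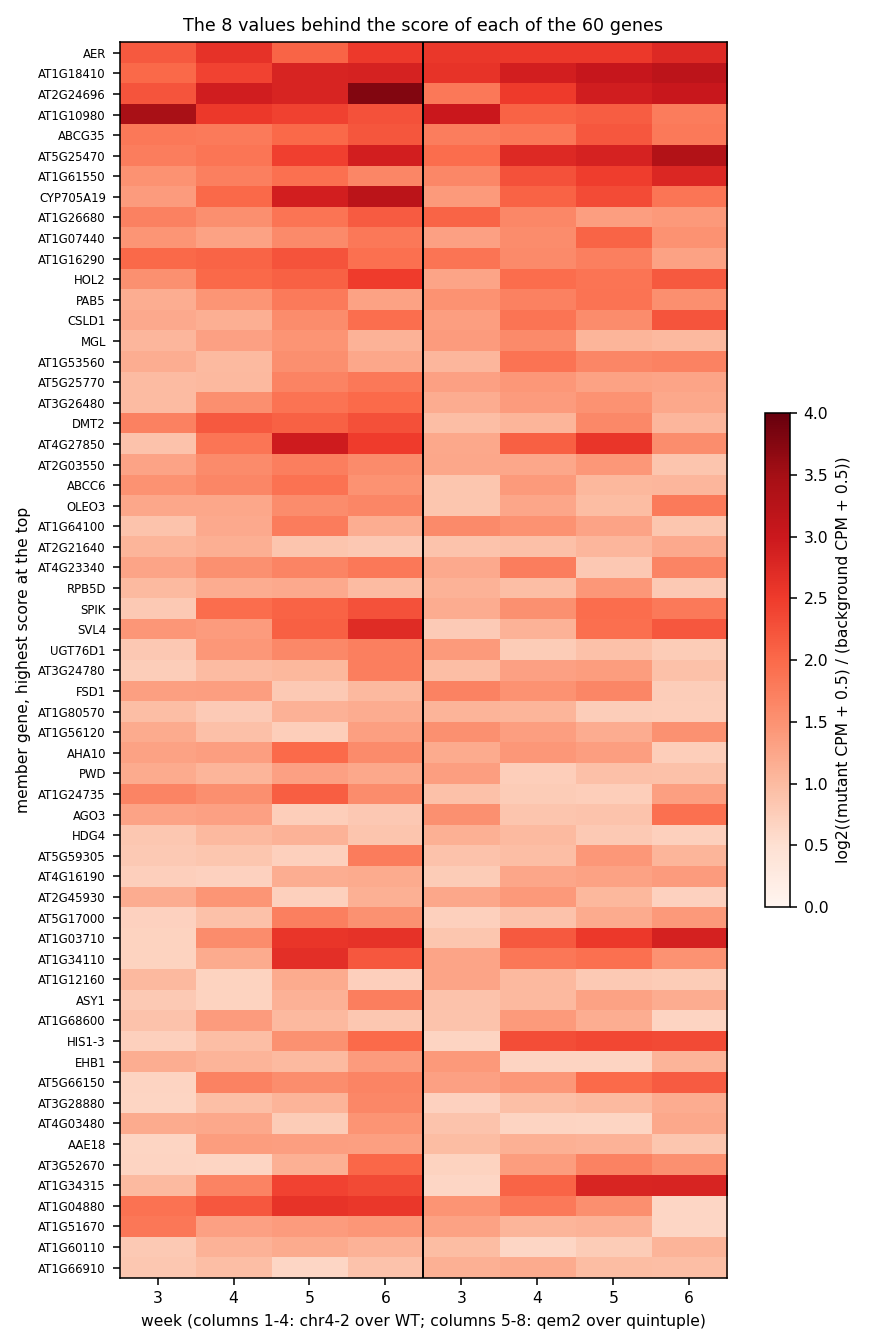
Heat map of the log2 ratio of mutant over background CPM (colour scale 0 to 4) for the 60 members, ordered by score from top to bottom, with chr4-2 over WT at 3 to 6 weeks in the left block and qem2 over quintuple in the right block. The top rows are dark in all columns, while AT1G03710 and HIS1-3 darken towards the later weeks and AT1G10980 is darkest at 3 weeks in both blocks.

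In 48 of the 60 members every mutant library lay above every library of its own background at each week. Of all 23848 genes with reads, 0.407% did so, a share that the selection itself sets apart from the members, so nothing is read from the difference. Another 8 members separated in 7 of the 8 comparisons and 4 in 6 or fewer, the fewest being 5 for AT5G59305. Counted with the edgeR test, chr4-2 against WT called 35, 46, 49 and 54 members higher at 3, 4, 5 and 6 weeks, where 0.818%, 1.09%, 2.32% and 4.01% of all tested genes were called in either direction. The test of qem2 against quintuple called 40, 44, 46 and 48 members higher, where 1.05%, 1.23%, 1.41% and 2.86% of all genes were called. These contrasts chose the members, and the counts carry no evidence.

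By the names in the annotation, 11 members are redox and detoxification enzymes, 5 are transporters, channels or pumps, 12 act in the nucleus or on RNA, 7 are receptors or signalling proteins, 12 belong to metabolism, the cell wall and proteolysis, and 13 have another or no known role. AT3G52670 is a transcribed pseudogene and the other 59 code for proteins. Where genes overlap or have close copies, reads of the partner may be included, since no source used here states whether reads were assigned by strand.

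Among the redox enzymes AER stood first of all members, with a score of 2.06. AER (chr5:5575973-5578086, minus strand) encodes an NADPH-dependent alkenal reductase, which removes reactive carbonyls formed by lipid peroxidation. It had 26.8, 27.3 and 26.5 CPM in chr4-2 apices and 8.36, 4.53 and 3.72 CPM in WT apices at 3 weeks. At 6 weeks it had 18.8, 27.2 and 25.0 CPM in chr4-2 and 3.66, 3.14 and 4.30 CPM in WT. In the other pair it had 22.9, 18.7 and 19.3 CPM in qem2 and 3.09, 2.14 and 3.86 CPM in quintuple at 3 weeks, and 26.8, 22.2 and 16.3 against 3.37, 1.63 and 3.46 CPM at 6 weeks. All mutant libraries were higher than all background libraries at each week, by a log2 ratio between 2.06 and 2.74, and the level did not order by week in either mutant.

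AER lies in a row of zinc-binding dehydrogenase genes on chromosome 5, of which AT5G17000 (chr5:5584708-5587237, minus strand), 8735 bases from it, is also a member. AT5G17000 had 11.4 ± 2.41 CPM in chr4-2 and 3.69 ± 0.366 CPM in WT at 6 weeks, and 9.97 ± 2.08 CPM in qem2 and 3.42 ± 0.528 CPM in quintuple (mean ± SD, n = 3 each). AT5G16990, between them and no member, had 24.4 ± 4.38 CPM in chr4-2 and 25.3 ± 4.18 in WT at 3 weeks, and 25.6 ± 2.50 CPM in qem2 and 25.4 ± 2.35 in quintuple. Its 8 log2 ratios lay between -0.13 and 0.39. AT5G16980 had 0.576 CPM in chr4-2 and 0.0889 CPM in WT at 3 weeks, and 0.410 CPM in qem2 and 0.0399 CPM in quintuple. Its log2 ratios were 0.53 to 0.87 for chr4-2 over WT at the 4 weeks, and 0.75, 0.28, -0.01 and 0.07 for qem2 over quintuple at 3, 4, 5 and 6 weeks. AT5G16960, on the other side of AER, was at or near 0. The genes of the row are similar copies, so the authors' counting could have split or dropped reads that match more than 1 of them, and the levels of AER and AT5G17000 carry that uncertainty.

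**Figure D2:**
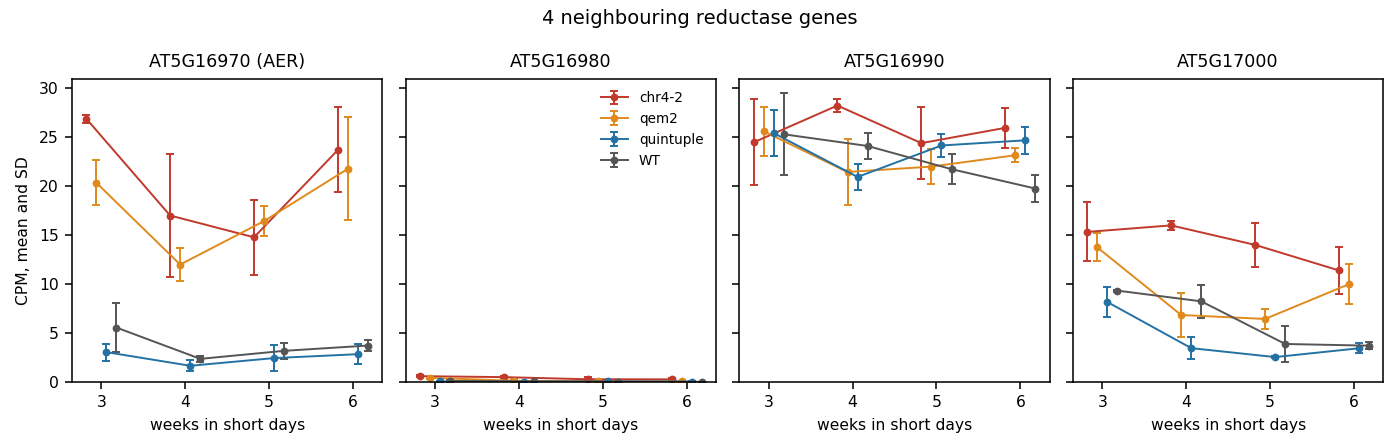
Mean CPM with SD by week (3 to 6) for 4 neighbouring dehydrogenase genes, n = 3 libraries per point and 2 for qem2 at 5 weeks, in chr4-2, qem2, quintuple and WT. The means of AER and AT5G17000 are higher in chr4-2 than in WT and in qem2 than in quintuple at each week, AT5G16990 lies near 20 to 28 CPM in all genotypes, and AT5G16980 stays under 1 CPM.

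CYP705A19, a cytochrome P450 monooxygenase, had 64.7, 60.8 and 65.9 CPM in chr4-2 and 8.53, 5.19 and 5.73 CPM in WT at 6 weeks, with 41.2, 48.5 and 39.5 CPM in qem2 and 15.0, 7.78 and 12.1 CPM in quintuple. The groups of each pair did not overlap. HOL2, a methyltransferase that uses S-adenosylmethionine, had 14.0, 13.5 and 16.4 CPM in chr4-2 and 1.41, 3.14 and 1.99 CPM in WT at that week, and 10.7, 6.42 and 6.98 CPM in qem2 and 1.35, 1.17 and 1.62 CPM in quintuple. AT1G07440, a short-chain dehydrogenase by its Rossmann fold, had 4.53, 7.23 and 6.13 CPM in chr4-2 and 1.73, 1.42 and 0.818 CPM in WT, and 7.90, 6.28 and 8.46 CPM in qem2 and 3.03, 1.17 and 2.89 CPM in quintuple. The 11 enzymes also include FSD1, an iron superoxide dismutase of the chloroplast, UGT76D1, a glycosyltransferase, the flavin monooxygenase AT1G12160, the dioxygenase AT4G23340, AT2G21640, whose product name is a marker of oxidative stress, and the methyltransferase AT1G24735.

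The transport group was led by ABCG35 (1.77), a full-size ABC transporter of the pleiotropic drug resistance family. It had 65.4, 73.1 and 67.4 CPM in chr4-2 and 17.7, 20.1 and 12.5 CPM in WT at 5 weeks, and 33.7 and 34.5 CPM in qem2 and 6.96, 7.23 and 7.01 CPM in quintuple. ABCC6 is an ABC transporter of the multidrug resistance class, AHA10 a proton pump known from the seed coat, SPIK a potassium channel known from pollen, and AT1G68600 a member of the malate channel family. SPIK is a low gene: it had 1.45, 1.65 and 2.15 CPM in chr4-2 and 0, 0.0997 and 0 CPM in WT at 5 weeks, and 1.29 and 2.27 CPM in qem2 and 0.0516, 0.107 and 0.0987 CPM in quintuple. All mutant libraries held reads of SPIK, and several background libraries held none.

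The nuclear group holds 3 genes of the B3 family of plant DNA-binding proteins, AT2G24696, AT5G25470 and AT1G26680, on chromosomes 2, 5 and 1. AT2G24696 (chr2:10509068-10510902, minus strand) had 5.63, 8.65 and 8.38 CPM in chr4-2 and 0.0523, 0.157 and 0.0512 CPM in WT at 6 weeks, and 5.84, 6.00 and 6.49 CPM in qem2 and 0.202, 0.311 and 0.423 CPM in quintuple. AT5G25470 had 6.87, 6.92 and 7.18 CPM in chr4-2 and 0.471, 0.629 and 0.409 CPM in WT, and 5.84, 7.88 and 7.68 CPM in qem2 and 0.202, 0.311 and 0.282 CPM in quintuple at the same week. AT1G26680 was the best read of the 3 in WT, with 36.0, 32.0 and 35.1 CPM in chr4-2 and 8.84, 6.45 and 6.91 CPM in WT, and 23.4, 21.6 and 16.0 CPM in qem2 and 6.06, 8.32 and 7.48 CPM in quintuple. In both pairs no background library of these genes reached a mutant library. The group further holds HIS1-3, a linker histone induced by drought, AT1G04880, an HMG-box protein with an ARID domain, HDG4, a homeodomain leucine zipper protein of the epidermal class, and DMT2, a DNA methyltransferase related to MET1. RPB5D is a subunit of RNA polymerases, AGO3 an argonaute that binds small RNAs, PAB5 a poly(A)-binding protein, AT1G64100 a pentatricopeptide repeat protein, and ASY1 a HORMA protein of the meiotic chromosome axis. ASY1 had 2.40, 6.41 and 5.56 CPM in chr4-2 and 0.837, 0.786 and 1.64 CPM in WT at 6 weeks, where the groups did not overlap. It was read in every library, and its groups overlapped in both pairs at 4 weeks.

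In the signalling group AT1G10980 carried the most reads. It is annotated as a lung seven-transmembrane receptor protein, with a role in plants that is not established. It had 48.9, 58.3 and 70.8 CPM in chr4-2 and 4.93, 4.35 and 5.87 CPM in WT at 3 weeks, a log2 ratio of 3.43. In the other pair it had 86.6, 83.9 and 80.9 CPM in qem2 and 10.8, 9.39 and 9.87 CPM in quintuple, a log2 ratio of 3.00. The receptor kinases are AT1G61550 of the S-locus lectin class, the leucine-rich repeat kinases AT1G56120 and AT1G34110, and AT1G66910. AT1G61550 is low, with 1.92, 2.04 and 1.69 CPM in chr4-2 and 0.105, 0.314 and 0.358 CPM in WT at 6 weeks, and 3.78, 5.09 and 4.79 CPM in qem2 and 0.269, 0.389 and 0.0706 CPM in quintuple. AT5G59305 encodes a small CLAVATA3/ESR-like protein of 76 residues, and EHB1 a calcium-dependent lipid-binding protein. AT5G59305 separated least clearly of all members: at 5 weeks it had 7.26, 20.7 and 9.40 CPM in chr4-2 and 7.21, 13.8 and 1.32 CPM in WT, which overlap.

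The metabolic group includes genes known from seeds and pollen beside housekeeping enzymes. OLEO3, an oleosin that coats oil bodies, had 2.27, 2.75 and 1.90 CPM in chr4-2 and 0.523, 0.314 and 0.358 CPM in WT at 6 weeks, and 1.37, 2.23 and 2.96 CPM in qem2 and 0.471, 0.156 and 0.212 CPM in quintuple. The summed level of CRU3, OLEO1, SESA3, EM1 and EM6 was 2.95 to 5.22 CPM in chr4-2 and 0.472 to 1.36 CPM in WT at 6 weeks, and 1.32 to 1.72 CPM in qem2 and 0.202 to 0.776 CPM in quintuple, with SESA3 at 0 and EM1 and EM6 at or near 0. The part of seed-type transcripts in the result for OLEO3 was not tested. CSLD1 is a cellulose synthase-like protein known from pollen tubes, and SVL4 is a SHV3-like membrane protein that had 5.22, 1.53 and 1.55 CPM in chr4-2 and no read in WT at 6 weeks. MGL degrades methionine, PWD is annotated as a phosphoglucan, water dikinase, AAE18 activates carboxylic acids, AT5G66150 is a mannosidase-type glycosyl hydrolase, and AT5G25770 and AT2G03550 are alpha/beta hydrolases. AT1G16290, a predicted transglycosylase, had 7.55, 7.64 and 7.32 CPM in chr4-2 and 2.15, 1.57 and 1.13 CPM in WT at 6 weeks, and 5.15, 5.16 and 5.22 CPM in qem2 and 1.89, 2.10 and 1.41 CPM in quintuple. AT4G16190, a papain-type protease, had the highest mean CPM of all members. It had 148, 144 and 176 CPM in chr4-2 and 66.7, 74.2 and 62.2 CPM in WT at 6 weeks, and 138, 145 and 139 CPM in qem2 and 52.7, 48.1 and 60.1 CPM in quintuple. AT1G03710 is a cystatin-like protein, a fold of protease inhibitors.

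The remaining group is headed by AT1G18410 (chr1:6336300-6342527, minus strand), a P-loop nucleoside triphosphatase of 1153 residues. It had 38.4, 33.8 and 32.7 CPM in chr4-2 and 4.71, 3.30 and 5.27 CPM in WT at 6 weeks, and 22.7, 15.9 and 20.5 CPM in qem2 and 1.41, 1.40 and 2.40 CPM in quintuple. The log2 ratio was 2.85 for chr4-2 over WT and 3.17 for qem2 over quintuple. The others are AT1G53560 (a ribosomal protein L18ae relative), AT3G26480 (WD-40 repeats), AT4G27850 (glycine-rich), AT3G24780, AT1G80570, AT2G45930, the ankyrin proteins AT3G28880 and AT4G03480, the pseudogene AT3G52670, AT1G34315, AT1G51670 and the lectin AT1G60110. AT1G51670, of unknown function, was the best read of these, with 42.6, 60.5 and 57.1 CPM in chr4-2 and 21.0, 23.6 and 13.1 CPM in WT at 6 weeks, and 31.6, 45.7 and 27.6 CPM in qem2 and 19.7, 24.0 and 23.3 CPM in quintuple.

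**Figure D3:**
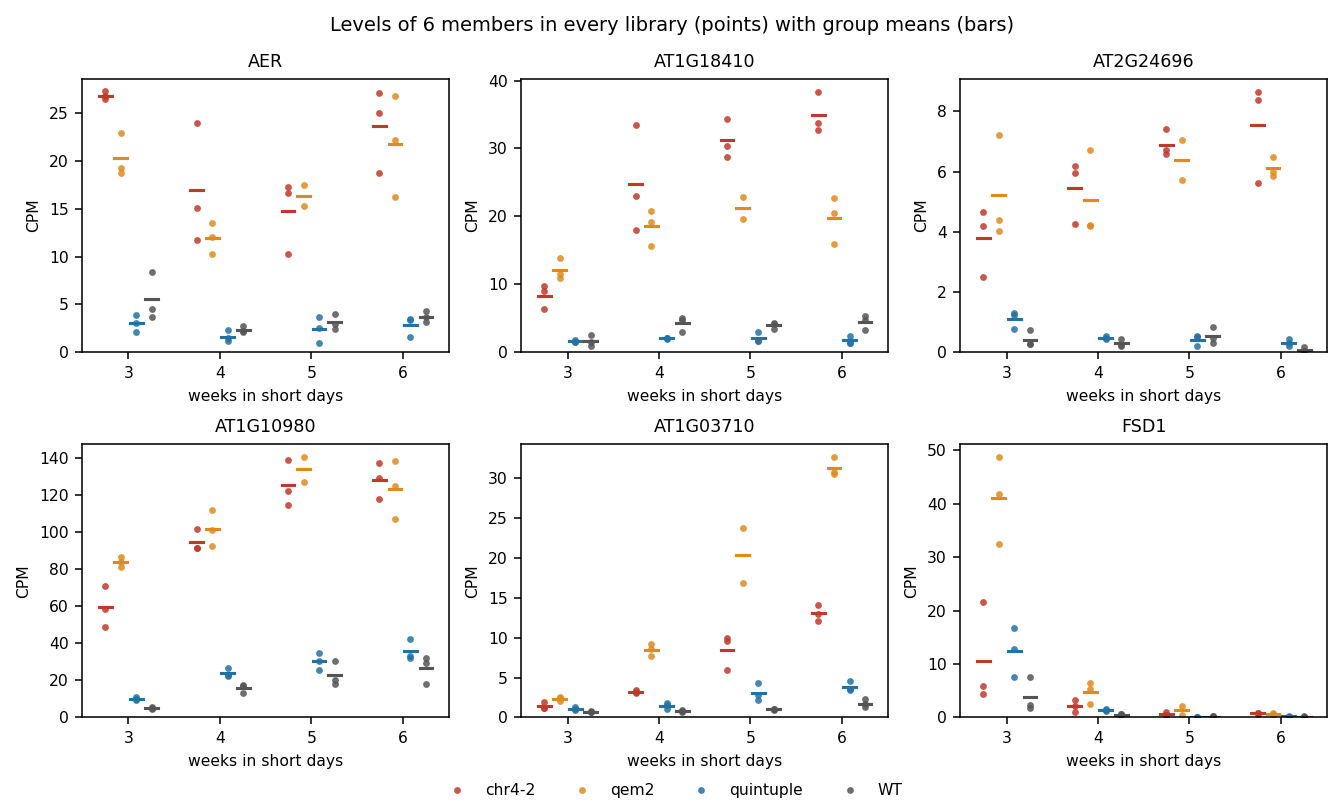
CPM (linear axis from 0) of 6 members in each library by week, with chr4-2, qem2, quintuple and WT side by side from left to right and short bars for group means, n = 3 libraries and 2 for qem2 at 5 weeks. The mutant points of AER, AT1G18410, AT2G24696 and AT1G10980 lie above all background points at each week, AT1G03710 climbs with age most in qem2, and FSD1 is high at 3 weeks and near 0 at 6 weeks in all genotypes.

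How the members changed with age compares weeks within a genotype, which the score did not do. The libraries are the same ones that entered the score. The difference in age change between a mutant and its background is part of what the score used. A contrast of the shares of a mutant and its background is therefore not independent of the selection. At 6 against 3 weeks edgeR called 29 members higher and 6 lower in chr4-2 (all 60 tested), where 22.9% and 23.1% of all tested genes were called higher and lower. In qem2 24 were higher and 7 lower, with 18.0% and 17.5% of all genes. In quintuple 19 were higher and 12 lower, with 20.5% and 21.0%, and in WT 21 were higher and 16 lower, with 18.8% and 19.2%. The median log2 fold change of the 60 was 0.56 in chr4-2, 0.49 in qem2, 0.18 in quintuple and 0.35 in WT, and that of all tested genes lay between -0.0035 in WT and 0.0145 in qem2. Higher calls made up 48.3% of members in chr4-2, 40.0% in qem2, 31.7% in quintuple and 35.0% in WT, and lower calls 10.0%, 11.7%, 20.0% and 26.7%. No test compared these shares between genotypes. The qem2 count was the least stable: it fell to 20 without qem2 at 3 weeks replicate 2 and to 19 without qem2 at 6 weeks replicate 3. All-gene calls fell from 6949 to 5735 and 5726 in these fits.

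**Figure D4:**
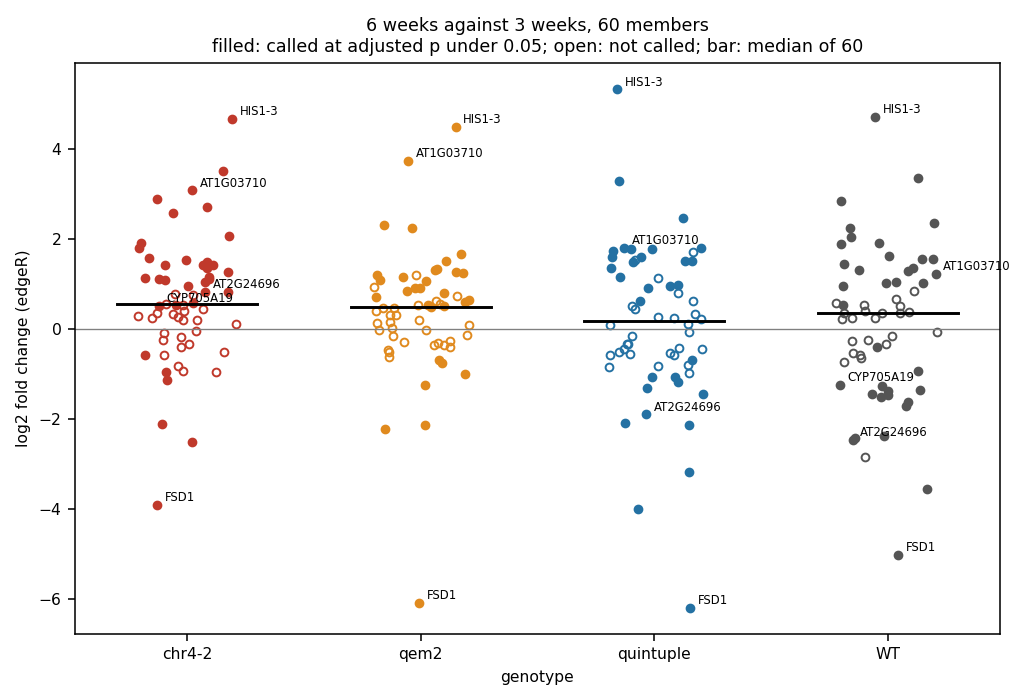
Log2 fold change of 6 weeks over 3 weeks for the 60 members in chr4-2, qem2, quintuple and WT, filled where called at adjusted p under 0.05, with a bar at the median and names for a few called genes. FSD1 is the lowest point and HIS1-3 the highest in all 4 genotypes, and AT2G24696 is filled above 0 in chr4-2 and below 0 in quintuple and WT.

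In all 4 genotypes 13 of the 60 members rose with age (against 9.21% of all genes tested): AT1G10980, ABCG35, AT1G16290, MGL, AT5G25770, RPB5D, UGT76D1, HDG4, AT5G59305, AT1G03710, AT1G12160, HIS1-3 and AT1G51670. The alpha/beta hydrolase AT5G25770 had 74.6, 66.8 and 88.8 CPM at 6 weeks and 7.75, 13.1 and 13.5 CPM at 3 weeks in chr4-2 (log2 fold change 2.58 ± 0.18 (SE), adjusted p = 2.20e-13). The other fold changes of AT5G25770 were 1.68 in qem2, 1.74 in quintuple and 1.92 in WT on the log2 scale. UGT76D1 had 10.8, 10.2 and 13.2 CPM at 6 weeks and 0.525, 0.901 and 1.14 CPM at 3 weeks in chr4-2 (log2 fold change 3.52 ± 0.29 (SE), adjusted p = 7.19e-12), and its fold changes were 1.51 in qem2, 3.29 in quintuple and 3.36 in WT. The linker histone HIS1-3 had few or no reads at 3 weeks, with 12.4, 8.93 and 3.88 CPM at 6 weeks and 0.160, 0.413 and 0.409 CPM at 3 weeks in qem2 (log2 fold change 4.51 ± 0.56 (SE), adjusted p = 1.24e-07). In WT HIS1-3 had 3.56, 2.52 and 2.92 CPM at 6 weeks and 0, 0 and 0.261 CPM at 3 weeks (adjusted p = 2.79e-06). AT1G10980 had its largest fold change in WT, with 26.4 ± 7.18 CPM at 6 weeks and 5.05 ± 0.766 CPM at 3 weeks (mean ± SD, n = 3 each; log2 fold change 2.37 ± 0.18 (SE), adjusted p = 4.53e-12), and its smallest in qem2 (0.54). AT1G12160, the flavin monooxygenase, had 8.28, 6.22 and 7.13 CPM at 6 weeks and 1.77, 2.14 and 2.15 CPM at 3 weeks in quintuple (log2 fold change 1.79 ± 0.20 (SE), adjusted p = 1.12e-08). In qem2 the calls of ABCG35, AT1G16290, AT1G51670 and HDG4 each ended when 1 library was left out. The adjusted p was highest for ABCG35 without replicate 2 at 6 weeks (0.0859), for AT1G16290 without replicate 2 at 3 weeks (0.132), for AT1G51670 without replicate 2 at 6 weeks (0.384) and for HDG4 without replicate 2 at 3 weeks (0.0779).

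The cystatin-like gene AT1G03710 had log2 fold changes above 3 in both mutants. It had 30.6, 30.8 and 32.7 CPM at 6 weeks and 2.00, 2.55 and 2.37 CPM at 3 weeks in qem2 (log2 fold change 3.74 ± 0.22 (SE), adjusted p = 6.19e-15). In chr4-2 it had 12.2, 14.0 and 13.0 CPM at 6 weeks and 1.97, 1.22 and 1.24 CPM at 3 weeks (log2 fold change 3.09 ± 0.23 (SE), adjusted p = 1.29e-12). In quintuple it had 4.58, 3.42 and 3.60 CPM at 6 weeks and 0.911, 1.24 and 1.03 CPM at 3 weeks (log2 fold change 1.81 ± 0.25 (SE), adjusted p = 3.19e-07), and in WT 2.25, 1.26 and 1.64 CPM at 6 weeks and 0.704, 0.635 and 0.848 CPM at 3 weeks (log2 fold change 1.24 ± 0.29 (SE), adjusted p = 0.000855). The weeks did not overlap in any genotype.

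In all 4 genotypes 3 of the 60 members fell with age (against 9.64% of all genes tested): FSD1, PAB5 and AT1G60110. FSD1 had 0.687, 0.767 and 0.423 CPM at 6 weeks and 41.9, 48.7 and 32.4 CPM at 3 weeks in qem2 (log2 fold change -6.08 ± 0.63 (SE), adjusted p = 6.22e-09). In quintuple FSD1 had 0.135, 0.156 and 0.212 CPM at 6 weeks and 12.8, 16.7 and 7.55 CPM at 3 weeks (log2 fold change -6.19 ± 0.71 (SE), adjusted p = 2.18e-08), and in chr4-2 0.824, 0.713 and 0.775 CPM at 6 weeks and 5.91, 21.6 and 4.29 CPM at 3 weeks (log2 fold change -3.90 ± 0.58 (SE), adjusted p = 1.61e-06). In WT it had 0.209, 0.157 and 0 CPM at 6 weeks and 2.29, 7.61 and 1.76 CPM at 3 weeks (log2 fold change -5.02 ± 0.83 (SE), adjusted p = 1.39e-05). At 3 weeks replicate 2 stood above the other libraries of its group in chr4-2 and in WT. AT1G60110, a mannose-binding lectin, had 0.105, 0.157 and 0.205 CPM at 6 weeks and 1.58, 2.27 and 1.76 CPM at 3 weeks in WT (log2 fold change -3.54 ± 0.56 (SE), adjusted p = 6.05e-06), and its fold changes were -2.12 in chr4-2, -2.21 in qem2 and -3.99 in quintuple. The PAB5 call in qem2 (adjusted p = 0.0341) ended without any of 4 of the 6 libraries, with adjusted p up to 0.104. AT1G68600, the malate channel gene, fell in chr4-2 (log2 fold change -2.50 ± 0.29 (SE), adjusted p = 1.03e-08) and in WT (log2 fold change -2.41 ± 0.31 (SE), adjusted p = 1.48e-07), and was called lower in qem2 (log2 fold change -0.68, adjusted p = 0.0416), where 5 of the 6 omissions ended the call (adjusted p up to 0.151). It was not called in quintuple (log2 fold change -0.57, adjusted p = 0.0847). DMT2 fell in quintuple, with 0.269, 0.311 and 0.282 CPM at 6 weeks and 2.23, 2.97 and 2.49 CPM at 3 weeks (log2 fold change -3.17 ± 0.48 (SE), adjusted p = 1.86e-06), in qem2 (log2 fold change -2.12 ± 0.40 (SE), adjusted p = 7.70e-05) and in WT (log2 fold change -1.61 ± 0.52 (SE), adjusted p = 0.0132), where the call ended without WT at 3 weeks replicate 3 (adjusted p = 0.0896) or at 6 weeks replicate 1 (0.0707). AT1G34315 fell in quintuple (log2 fold change -2.13 ± 0.28 (SE), adjusted p = 1.80e-07) and in WT (log2 fold change -1.47, adjusted p = 3.45e-05), and it was not called in qem2 (0.53, adjusted p = 0.0657) or chr4-2 (-0.09, adjusted p = 0.769).

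Calls in opposite directions were found for 2 of the 60 members (against 0.726% of all genes tested). The B3 gene AT2G24696 had 5.63, 8.65 and 8.38 CPM at 6 weeks and 2.50, 4.67 and 4.19 CPM at 3 weeks in chr4-2 and was called higher (log2 fold change 0.83 ± 0.27 (SE), adjusted p = 0.012). In WT it had 0.0523, 0.157 and 0.0512 CPM at 6 weeks and 0.264, 0.725 and 0.261 CPM at 3 weeks and was called lower (log2 fold change -2.46 ± 0.66 (SE), adjusted p = 0.00383), and in quintuple it was also called lower (-1.89, adjusted p = 0.000366). The call in chr4-2 ended without chr4-2 at 3 weeks replicate 1 (adjusted p = 0.0609), and that in WT ended without WT at 3 weeks replicate 2 (adjusted p = 0.0848). CYP705A19 was called higher with age in chr4-2 (log2 fold change 0.51 ± 0.21 (SE), adjusted p = 0.0442), with 64.7, 60.8 and 65.9 CPM at 6 weeks and 45.1, 39.0 and 38.1 CPM at 3 weeks. It was lower in WT (log2 fold change -1.23 ± 0.24 (SE), adjusted p = 0.000153), with 6.48 ± 1.79 CPM at 6 weeks and 15.3 ± 1.91 CPM at 3 weeks (mean ± SD, n = 3 each). The chr4-2 call of CYP705A19 ended without any of 5 of the 6 libraries (adjusted p up to 0.142) and with DESeq2 (adjusted p = 0.0547). Because the difference between the time courses of a mutant and its background is part of what the score used, it was not tested.

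No call in any genotype was made for 11 of the 60 members (against 35% of all genes tested): AER, AT1G53560, AT3G26480, ABCC6, PWD, AT1G24735, AGO3, ASY1, AT4G03480, AAE18 and AT1G66910. For AER the log2 fold change was -0.33 in chr4-2, 0.03 in qem2, -0.14 in quintuple and -0.56 in WT, with adjusted p between 0.182 and 0.949. By role, the 11 redox enzymes held 3, 3, 2 and 2 higher calls and 3, 2, 4 and 5 lower calls in chr4-2, qem2, quintuple and WT. The 12 nuclear genes held 8, 4, 5 and 5 higher and 1, 2, 3 and 3 lower calls in the same order. The 12 metabolic genes held 8, 8, 5 and 5 higher and 0, 0, 1 and 1 lower calls. Over all tested genes 22.9%, 18.0%, 20.5% and 18.8% were called higher in that order, and 23.1%, 17.5%, 21.0% and 19.2% lower. No role group was tested against another, between genotypes or against these shares.

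The quintuple was set against WT to see whether the 5 flowering-time mutations alone change the members. The selection compared each mutant with its own background and not the backgrounds with each other, although the same libraries entered it. At 3 weeks 1 member was called higher and 0 lower (8 and 3 at an unadjusted p under 0.05, and 1 higher and 0 lower with DESeq2), where 0.23% and 0.174% of all genes were called. At 4 weeks 4 were higher and 4 lower (7.52% and 4.83% of all genes), at 5 weeks 4 and 4 (2.56% and 4.3%), and at 6 weeks 4 and 1 (2.82% and 3.48%). These counts moved with the libraries fitted. All-gene calls at 4 weeks were 2417, against 356 without quintuple at 4 weeks replicate 3 and 285 with the compared libraries alone, and at 5 weeks 1342 against 186 with those alone. With the compared libraries alone 0 members were higher and 1 lower at 4 weeks (AT5G59305) and at 5 weeks (ABCG35). At 6 weeks 2 were higher and 2 lower, where 952 of 17915 genes were called. With all 48 columns 0 were higher and 3 lower at 4 weeks, and 0 were called at 3 weeks. All-gene calls were then 2411 and 76 of 19380. That setting counts the same column in both qem2 and quintuple at 5 weeks. Members were chosen as higher in qem2 than in quintuple, so the repeated column can widen their spread. Nothing is read from member calls that ended in that setting. The median log2 fold change of the 60 lay between -0.073 and -0.0037 over the weeks. No call at any week was made for 47 of the 60 members (against 80% of all genes tested). For 39 of the 60 the absolute fold change stayed under 1 on the log2 scale at all 4 weeks. That is a smaller share than the 84.8% of all genes tested. Members are lower genes, with a median level of 4.16 CPM against 13.9 CPM for all genes with reads. Fold changes of low genes scatter more, and the part of level in this share was not tested.

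**Figure D5:**
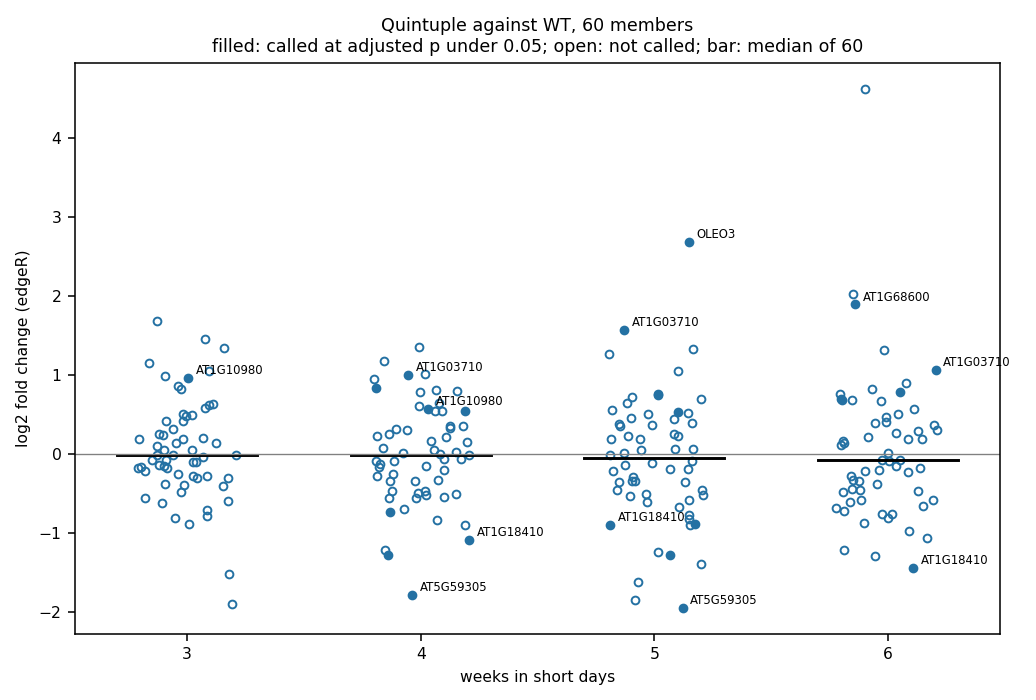
Log2 fold change of quintuple over WT for the 60 members at 3, 4, 5 and 6 weeks, filled where called at adjusted p under 0.05, with bars at the medians and names for some called genes. Most points are open and scatter around 0, and the open point above 4 at 6 weeks is SVL4, which had no read in WT there, so its size depends on the fit.

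AT1G18410 was lower in quintuple at 3 of the 4 weeks. At 6 weeks it had 1.41, 1.40 and 2.40 CPM in quintuple and 4.71, 3.30 and 5.27 CPM in WT (log2 fold change -1.44 ± 0.26 (SE), adjusted p = 0.000348), and it was also called at 4 weeks (log2 fold change -1.08 ± 0.26 (SE), adjusted p = 0.00529) and 5 weeks (log2 fold change -0.89 ± 0.26 (SE), adjusted p = 0.0296). The call at 5 weeks ended without any of 4 of the 6 libraries (adjusted p up to 0.155), and with the compared libraries alone those at 4 and 5 weeks ended (0.088 and 0.178). With all 48 columns, the setting that holds the repeated column, all 3 ended (0.111, 0.271 and 0.0595 at 4, 5 and 6 weeks). AT1G56120, a receptor kinase, had 11.7, 13.2 and 13.7 CPM in quintuple and 22.5, 30.2 and 17.1 CPM in WT at 5 weeks (log2 fold change -0.89 ± 0.15 (SE), adjusted p = 0.000189), and was also called at 4 weeks (log2 fold change -0.74 ± 0.15 (SE), adjusted p = 0.0015). Both calls ended with the compared libraries alone (adjusted p = 0.0796 at 4 weeks and 0.0841 at 5 weeks). ABCG35 had 6.96, 7.23 and 7.01 CPM in quintuple and 17.7, 20.1 and 12.5 CPM in WT at 5 weeks (log2 fold change -1.27 ± 0.24 (SE), adjusted p = 0.000904). AT5G17000 was called at 4 weeks, with 3.85, 4.32 and 2.13 CPM in quintuple and 6.39, 8.45 and 9.80 CPM in WT (log2 fold change -1.27 ± 0.26 (SE), adjusted p = 0.00158), within the uncertainty of its close copies, and the call ended with the compared libraries alone (adjusted p = 0.0786). AT5G59305 had 2.06, 2.52 and 0.987 CPM in quintuple and 7.21, 13.8 and 1.32 CPM in WT at 5 weeks (log2 fold change -1.94 ± 0.50 (SE), adjusted p = 0.0148), and these groups overlap. Its call ended without WT at 5 weeks replicate 2 (adjusted p = 0.264) or quintuple at 5 weeks replicate 3 (0.0801), and with the compared libraries alone (0.285). It was also called lower at 4 weeks (log2 fold change -1.78 ± 0.51 (SE), adjusted p = 0.0182), where 3 of the 6 omissions ended the call (adjusted p up to 0.12).

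AT1G03710 was higher in quintuple at 4, 5 and 6 weeks. At 5 weeks it had 2.22, 4.29 and 2.76 CPM in quintuple and 0.920, 1.10 and 1.05 CPM in WT (log2 fold change 1.57 ± 0.26 (SE), adjusted p = 0.000144), and at 6 weeks 4.58, 3.42 and 3.60 against 2.25, 1.26 and 1.64 CPM (log2 fold change 1.07 ± 0.23 (SE), adjusted p = 0.00239). The call at 4 weeks (adjusted p = 0.0179) ended without WT at 4 weeks replicate 3 (0.114) or without quintuple at 4 weeks replicate 2 (0.0785) or 3 (0.143). With the compared libraries alone all 3 calls of AT1G03710 ended (adjusted p = 0.16, 0.0838 and 0.054 at 4, 5 and 6 weeks), and with all 48 columns those at 4 and 6 weeks did (0.159 and 0.0924). AT1G10980 had 10.8, 9.39 and 9.87 CPM in quintuple and 4.93, 4.35 and 5.87 CPM in WT at 3 weeks (log2 fold change 0.96 ± 0.19 (SE), adjusted p = 0.00654). That call ended without WT at 3 weeks replicate 1 (adjusted p = 0.0522) or 2 (0.0537) or quintuple at 3 weeks replicate 1 (0.0791), although the groups do not overlap. At 4 weeks it was also called higher (log2 fold change 0.58 ± 0.16 (SE), adjusted p = 0.0158), and there the call ended without WT replicate 2 (adjusted p = 0.0762) or quintuple replicate 1 (0.0517) or 3 (0.0874), and with the compared libraries alone (0.0884). With all 48 columns both AT1G10980 calls ended (0.373 at 3 weeks and 0.187 at 4 weeks). AT2G03550 was higher at 4, 5 and 6 weeks, with 25.3, 21.9 and 22.2 CPM in quintuple and 11.5, 13.1 and 14.5 CPM in WT at 6 weeks (log2 fold change 0.78 ± 0.15 (SE), adjusted p = 0.000538). Its calls at 4 and 5 weeks ended without 3 and 4 of the 6 libraries, with adjusted p up to 0.2 and 0.179, with the compared libraries alone (0.0945 and 0.142) and with all 48 columns (0.115 and 0.161). AT1G68600 was called at 6 weeks, with 9.70, 6.14 and 4.45 CPM in quintuple and 1.26, 1.42 and 2.46 CPM in WT (log2 fold change 1.89 ± 0.31 (SE), adjusted p = 6.57e-05). OLEO3 had 0.258, 0.697 and 0.197 CPM in quintuple and 0.0767, 0.0997 and 0 CPM in WT at 5 weeks (log2 fold change 2.69 ± 0.74 (SE), adjusted p = 0.0208). The OLEO3 call ended without WT at 5 weeks replicate 1 (adjusted p = 0.0585) or 3 (0.0927), without quintuple at 5 weeks replicate 2 (0.251) and with DESeq2 (0.0924), and with the compared libraries alone the gene was not tested. The other calls were AT1G16290 at 4 weeks, AT1G34110 at 5 weeks and AHA10 at 6 weeks, with adjusted p between 0.0357 and 0.0455, and each ended without at least 4 of the 6 libraries, with the compared libraries alone (adjusted p up to 0.299) and with all 48 columns (up to 0.167). The AT1G34110 call also ended with the replicate number as a block (adjusted p = 0.0522), which left 7 members called at 5 weeks.

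By position, 28 of the 60 members (46.7%) lie on chromosome 1, which holds 26.4% of the genes with reads. Chromosomes 2, 3, 4 and 5 hold 10, 6, 8 and 8 members, against 15.3%, 19.9%, 15.2% and 23.2% of the genes. CHR4 itself is on chromosome 5. Only AER and AT5G17000 lie within 5 genes of each other. Of the 120 genes next to a member on either side, 11 (9.17%) had a score above 0, against 7.24% of all genes with reads, and the median of their 8 values was 0.03 against 0.01. The highest score among these neighbours was 0.38, for RLP3 beside AHA10. Members had a median of 6 exons, against 4 for all genes with reads, and coded for a median of 492 residues, against 370. Their mean level was a median of 4.16 CPM, against 13.9 CPM for all genes.

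Gene lists of the tissue and pathway were counted in the same 2 contrasts, without any member. Of 11 floral promoters 1, 0, 3 and 4 were called higher in chr4-2 than in WT at 3, 4, 5 and 6 weeks and 0 lower. At 6 weeks these were SPL4, FDP, SPL15 and FUL, and the list median was 0.72. In qem2 1, 1, 0 and 0 of the list were higher than in quintuple, and AP1 and LFY were lower at 6 weeks, where the list median was -0.25. AP1 is near the floor, with reads in 8 of the 47 libraries, up to 3.10 CPM. Of 6 tested Polycomb-regulated identity genes FLC alone was called, lower in chr4-2 at 6 weeks (log2 fold change -3.75, adjusted p = 0.000291) and in qem2 at 5 and 6 weeks. Both qem2 and quintuple carry the flc mutation, so the FLC reads of that pair come from a mutated gene. CRU3, a seed storage protein gene, was higher in chr4-2 at 4, 5 and 6 weeks and in qem2 at 5 and 6 weeks, where no library exceeded 2.61 CPM. PR5 was the sole salicylic acid gene called of 5, lower in chr4-2 at 5 and 6 weeks. CHR4 was the sole gene called of 3 tested CHD remodellers. Of the tested DNA methylation genes (7), heat shock genes (4), leaf genes (5), vascular genes (5) and root genes (2), edgeR called 0 in either pair at any week, and at most 2, 1, 1, 1 and 1 of them passed an unadjusted p under 0.05 in a single comparison.

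Of 8 meristem and boundary genes CUC1 was called higher in chr4-2 at 3, 5 and 6 weeks, STM and WUS were at 5 weeks, STM and CUC1 were higher in qem2 at 3 weeks, and CUC2 was lower in qem2 at 6 weeks. Their summed level was 353 to 428 CPM in chr4-2 and 256 to 334 CPM in WT at 5 weeks, and 359 to 441 against 305 to 342 CPM at 6 weeks. In qem2 it was 236 to 276 CPM, against 189 to 210 CPM in quintuple at 3 weeks, while at 6 weeks it was 275 to 318 CPM in qem2 and 291 to 339 CPM in quintuple. The summed level of the 5 leaf genes at 6 weeks was 8343 to 11150 CPM in chr4-2 and 11091 to 13893 CPM in WT, and 9153 to 10924 CPM in qem2 and 8342 to 10104 CPM in quintuple. The part of these tissue differences in the levels of the members was not tested.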

How the data were processed

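RNA of shoot apices was sequenced from TruSeq libraries, and the authors deposited a table of raw counts with 48 library columns. TopHat2, SAMtools, HTSeq, DESeq2 and the TAIR10 build are named without versions, per the submitters' processing notes, and strand and multi-mapping settings are not given in the sources used here. The labels call the replicates independent biological replicates. One column that equalled another was left out, leaving 47 libraries in 16 groups. Gene names, positions and promoters came from the RefSeq TAIR10.1 annotation, which matched 26719 of the 27206 genes and all 60 members. The authors' own tables of comparisons were not used.

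Counts were fitted with edgeR 4.0.16 (R 4.3.3; limma 3.58.1) with TMM factors, the filterByExpr filter and the quasi-likelihood test on all 16 groups, with Benjamini-Hochberg adjustment over the 19566 genes tested and calls at an adjusted p under 0.05. Every adjusted p given is from this fit unless another is named. The common biological coefficient of variation was 14.7%. The fit code was checked on simulated data. Each result was also computed with DESeq2 1.42.0, with RLE factors, without the count filter, from only the libraries compared, with the replicate number as a block, with a minimum fold change, with all 48 columns and with each library left out. Tables were handled with Python 3.11.15 and pandas 2.3.3.

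Replicate numbers carry no stated pairing in the labels. Residuals of equally numbered libraries correlated above 0.1 in all 3 pairs for quintuple against WT at 5 weeks alone (0.193, 0.110 and 0.162). The largest correlations were at 4 weeks in the same comparison (0.370 and 0.327 for replicates 1 and 2, and 0.012 for replicate 3). At 6 weeks they were -0.107, -0.150 and -0.235. The members and gene lists were chosen with earlier results of these data known. Members named with values were the 12 highest scores, the 5 highest mean levels, those at the cut-off, the 3 smallest adjusted p per direction and comparison, and those near or related to another member. ASY1, SPIK, SVL4, OLEO3 and AT5G59305 and the genes of calls that ended were named after their values were seen.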

Additional observations from a re-analysis of the deposited data

Results flagged for a closer look

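For 8 members the libraries of the compared groups did not overlap in one direction in one comparison and in the opposite direction in another. These differences were not tested, and the same pattern was not counted over all genes, so nothing is read from the count. Only AT2G24696 and CYP705A19 were called in opposite directions. AT3G26480, AAE18 and PWD were called in no genotype, HOL2 was not called in chr4-2, and AT1G34315 was not called in qem2. At 6 against 3 weeks AT2G24696 had a log2 fold change of 0.83 in chr4-2, -1.89 in quintuple and -2.46 in WT. CYP705A19 had 0.51 in chr4-2 and -1.23 in WT, and HOL2 had 0.44 in chr4-2 and -1.43 in quintuple. AT3G26480 had 0.40 in chr4-2, -0.35 in qem2 and -0.52 in WT. AAE18 had 0.30 in chr4-2 and -0.33 in WT, and PWD had -0.26 in qem2 and 0.24 in WT. AT1G34315 had 0.53 in qem2, -2.13 in quintuple and -1.47 in WT. AT1G12160 had a log2 fold change of -0.30 for quintuple against WT at 3 weeks and 0.46 at 5 weeks, and it was not called at any week.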

How the results depend on the processing

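No result changed its direction under the alternatives run. Of the 60 members, 41 to 57 stayed among the 60 highest scores under another pseudocount, TMM scaling, group medians or all 48 columns, and 47 to 51 without 1 replicate number. Under all 8 of these settings 25 stayed, with the 12 highest scores among them. With a log2 fold change of at least 1 also required, 18 members were called at 6 against 3 weeks in qem2, and 0, 4, 4 and 3 for quintuple against WT at 3, 4, 5 and 6 weeks. All-gene calls were then 2301 in qem2 and 54, 632, 662 and 655 for quintuple against WT, of 19566 genes tested. With all 48 columns the counts for quintuple against WT became 0, 3, 5 and 2. All-gene calls were then 76, 2411, 1338 and 1219 of 19380. The repeated column can widen the spread of the members there, so nothing is read from those counts. With the compared libraries alone 1 member was called at 4 weeks and 1 at 5 weeks, against 285 of 18344 and 186 of 17949 genes. Leaving out 1 library gave 31 to 36 members in chr4-2, 19 to 25 in qem2, 30 to 33 in quintuple and 31 to 37 in WT at 6 against 3 weeks, and 0 to 2, 3 to 8, 4 to 8 and 4 to 6 for quintuple against WT at 3, 4, 5 and 6 weeks. All-gene calls were then 7403 to 8721, 5564 to 6064, 6551 to 7280 and 5891 to 6487 in the same genotypes. For quintuple against WT they were 30 to 80, 356 to 3016, 552 to 1912 and 725 to 1025 in order of week. Between 19538 and 19563 genes were tested. With a replicate block the counts were 35, 29, 32 and 38 in chr4-2, qem2, quintuple and WT, and 1, 8, 7 and 5 for quintuple against WT. Of 19566 genes 9007, 6926, 8138 and 7463 were called in those genotypes, and 80, 2480, 1382 and 1297 for quintuple against WT. The cause of these changes was not tested. The mean level of the members over libraries had a median of 4.16 CPM.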
